A study of Macaca fascicularis with 64 samples.

Results

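β-cells with DLK1 messenger RNA were examined among single islet cells of 16 cynomolgus monkeys. A β-cell was a cell with over 800 macaque genes and over 10000 unique molecular identifiers (UMIs, each standing for 1 counted transcript molecule), in which insulin (INS) had the highest count of the hormones GCG, INS, SST and PPY, reached at least 20000 CPM (UMI counts scaled to a common depth, taken without the spike-in RNAs) and was at least 2 times the second hormone. Those with at least 5 DLK1 UMIs were selected, and they numbered 110 of 1086 β-cells and of 5908 retained cells. A further 202 β-cells had 1 to 4 DLK1 UMIs and 774 had 0. The 774 cells are called DLK1-zero β-cells, and the 316 of them from the 8 animals with selected cells were the comparison group within each animal. The 8 young and 8 old animals, with 4 females and 4 males at each age, had no experimental treatment. Islets were hand-picked from the tail part of each pancreas, dissociated, and single cells were taken by mouth pipette into 4 libraries per animal. Animals were collected on successive days, so that animal and day of collection cannot be told apart.

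DLK1 (delta like non-canonical Notch ligand 1) is a transmembrane protein with EGF-like repeats that resembles the Notch ligand Delta but lacks the domain by which Delta binds Notch, and its outer part can be shed. The gene is imprinted and in mammals is expressed from the paternal chromosome, at a locus that also holds the RNA MEG3. It is known as an inhibitor of fat cell differentiation and as a marker of immature cells in several organs, and in the adult pancreas it is known from endocrine cells.

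The summed counts of all retained cells were between 20719761 and 34053080 UMIs per animal (median 26691798). No cell carried the same counts as another cell, and no cell name occurred in more than 1 library. Libraries differed strongly in how much DLK1 they held, and 24 of 64 libraries, with all those of old female 1 and old male 3, had 0 DLK1 UMIs in any cell.

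Selected β-cells were found in 8 of 16 animals, and 83 of the 110 (75.5%) came from old female 4 and young male 2. In old female 3 they made up 13 of 27 β-cells (48.1%, exact binomial 95% interval 28.7 to 68.1%), in old female 4 they were 64 of 189 (33.9%, 27.2 to 41.1%), and in young female 3 they were 4 of 16 (25%, 7.27 to 52.4%). Young male 2 had 19 of 123 (15.4%, 9.56 to 23.1%) and young female 1 had 4 of 29 (13.8%, 3.89 to 31.7%). The shares were low in young male 1 with 2 of 69 (2.90%), old male 1 with 2 of 82 (2.44%) and young female 4 with 2 of 87 (2.30%). The intervals of the 3 highest animals lay above those of these 3 lowest ones, except that of young female 3, which overlapped them. In the other 8 animals none of 464 β-cells was selected. For old female 1, with 0 of 127 β-cells, the upper end of the exact interval was 2.86% (2.36% if a count of 0 is taken to allow 3 counts), and for young female 2, with 0 of 8, it was 36.9% (37.5%). These intervals and limits cover counting error only.

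**Figure D1:**
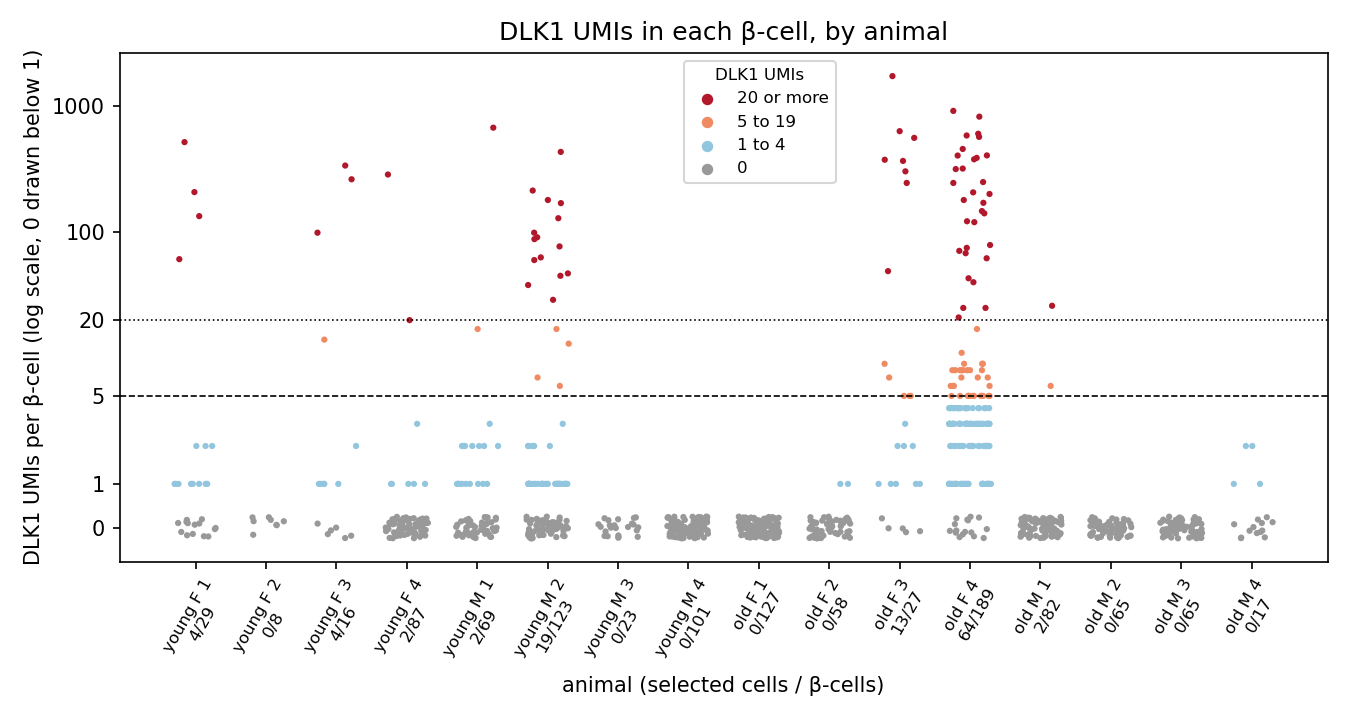
DLK1 UMIs in each β-cell (y axis, log scale, with 0 drawn below 1) for each of 16 animals (x axis, with the selected cells and all β-cells below each name). Each point is a cell, and the lines mark 5 and 20 UMIs. Old female 4 (64 of 189) and young male 2 (19 of 123) hold most selected cells, 8 animals hold none, and the band between 1 and 19 UMIs is filled mainly in old female 4.

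The amount of DLK1 in the selected cells spanned a wide range, which describes the selection and is not a test. The counts ran from 5 to 1736 UMIs with a median of 48, and the DLK1 level of a cell from 24.8 to 8941 CPM with a median of 652 CPM. Of the 110 cells, 44 had 5 to 19 UMIs and 66 had 20 or more. The 66 cells had a median of 175.5 UMIs and held 95.9% of the 17875 DLK1 UMIs of all β-cells, and the 10 cells with the most DLK1 held 42.7%. The number of β-cells fell from 94 at 1 UMI to 47 at 2, 39 at 3, 22 at 4 and 15 at 5, and in wider steps it was 23 at 6 to 9 UMIs, 6 at 10 to 19, 12 at 20 to 49 and 13 at 50 to 99. These steps widen, so that their counts do not show a gap between lower and higher cells. Just inside the threshold, 15 cells had 5 UMIs (median 43.1 CPM of DLK1), of which 12 were from old female 4. Just outside it, 22 cells had 4 UMIs (median 38.0 CPM), all from old female 4.

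By animal, the median count of the selected cells was highest in young male 1 with 346.5 UMIs over 2 cells, followed by old female 3 with 246 UMIs. It was 181 UMIs in young female 3, 171 in young female 1 and 153.5 in young female 4. It was 63 UMIs in young male 2, 19 in old female 4 and 16 in old male 1. Old female 4, which had the most selected cells, therefore had one of the lowest medians, as 32 of its 64 cells had 5 to 19 UMIs, and the 2 cells of old male 1 had 6 and 26 UMIs. Over all β-cells of an animal, the DLK1 level was 1554 CPM in old female 3, 608 CPM in young female 3, 480 CPM in old female 4, 453 CPM in young female 1, 291 CPM in young male 2 and 120 CPM in young male 1. It was 40.5 CPM in young female 4, 5.53 CPM in old male 1, 5.20 CPM in old male 4, 0.480 CPM in old female 2, and 0 in the β-cells of the remaining 6 animals.

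Low DLK1 counts moved with the library. In the 30 libraries in which no cell of any type had 20 or more DLK1 UMIs, 26 of 2013 α-cells (1.29%) and 0 of 487 β-cells had 1 to 4 UMIs, and no β-cell was selected. In the 20 libraries whose cells with 20 or more UMIs summed to between 20 and 376 UMIs, 1 to 4 UMIs were found in 15.5% of α-cells and 15.8% of β-cells, and 12 β-cells were selected, 2 of them with 5 to 19 UMIs. In the 14 libraries in which such cells summed to between 512 and 2738 UMIs, 54.6% of α-cells and 47.4% of β-cells had 1 to 4 UMIs. Those 14 libraries held 98 of the 110 selected cells, with 42 of the 44 cells at 5 to 19 UMIs. They also held 56 of the 66 at 20 or more, which the sorting by such cells itself favours. Across the 38 libraries of 13 animals with DLK1 in cells other than α-cells, the DLK1 count of those cells and the mean count of the α-cells had a Spearman correlation of 0.872, given as a description since libraries share animals. In the 14 libraries the mean α-cell count was between 0.293 and 3.81 UMIs, or between 0.0473 and 0.181% of the library's DLK1 total. The cells at 5 to 19 UMIs therefore sat in libraries whose α-cells also carried DLK1 counts, and whether their counts come from the cell itself was not tested. In old male 1 the 2 selected cells held all 32 DLK1 UMIs of the animal, and none of the 66 α-cells of their library had any. Libraries with totals near 32 varied. In library 4 of young female 2 (35 DLK1 UMIs) 1 of 90 α-cells had 1 to 4 UMIs. In library 3 of young female 1 (45 DLK1 UMIs) 16 of 71 did. The absence in old male 1 therefore does not set it apart.

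**Figure D2:**
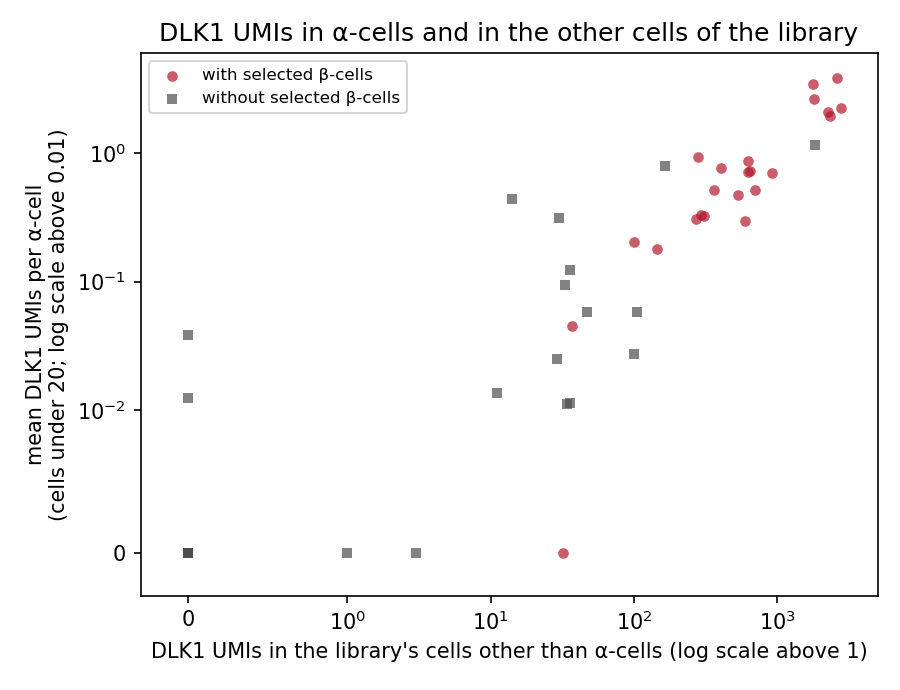
Mean DLK1 UMIs per α-cell, over α-cells with under 20 UMIs (y axis, log scale above 0.01), against the DLK1 UMIs of the library's cells other than α-cells (x axis, log scale above 1). Each point is 1 of 64 libraries, red where it holds selected β-cells. The α-cell mean tends to be higher where the other cells hold more DLK1 (Spearman correlation 0.872 over the 38 libraries above 0 on the x axis), and the red point at 0 on the y axis is the library of old male 1.

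The same selection was applied to the other cell types, named by their leading hormone. At 5 or more DLK1 UMIs there were 71 of 4401 α-cells (1.61%, exact interval 1.26 to 2.03%) against 10.1% (8.40 to 12.1%) of β-cells, at median depths of 64894 and 76826 UMIs per cell. At 20 or more UMIs the shares were 0.136% of α-cells and 6.08% of β-cells, and the highest α-cell count was 61 UMIs. Among δ-cells, which make somatostatin, 21 of 101 had 5 or more UMIs (20.8%, 13.4 to 30.01%) and 11 had 20 or more (10.9%), at a median depth of 43877 UMIs. None of the 58 PP-cells had 5 UMIs (upper end of the exact interval 6.16%, or 5.17% if a count of 0 is taken to allow 3 counts). When each cell was thinned to 10000 macaque UMIs, at least 1 DLK1 UMI remained in 12.2% of β-cells, 4.83% of α-cells and 23.8% of δ-cells. This left out 32 α-cells with fewer macaque UMIs. Without thinning these shares were 28.7%, 18.6% and 30.7%. The intervals treat cells as separate draws, although cells of an animal are not.

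Some δ-cells reached 5 DLK1 UMIs in animals in which no β-cell did. In young female 2, 4 of 5 δ-cells had 5 or more UMIs, with at most 47, and in old male 4 these were 4 of 10, with at most 105. In old female 2 they were 2 of 9, with at most 26. No β-cell of these 3 animals was selected, although 2 β-cells of old female 2 and 4 of the 17 of old male 4 had 1 to 4 UMIs. The animals had 8, 17 and 58 β-cells, so that few could be examined. The highest count outside β-cells, 1818 UMIs, was in 1 of the 262 retained cells that met the hormone rule for none of the 4 types. Such cells can include those with 2 hormones near equal. Among them 24 (9.16%) had 5 or more DLK1 UMIs and 13 (4.96%) had 20 or more, against 10.1% and 6.08% of β-cells. Their median depth was 52309 UMIs.

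Selected β-cells were sequenced more deeply, as a threshold on a raw count favours. Their median was 91754.5 UMIs and 5258 genes per cell, against 77711 UMIs and 4863 genes in the β-cells with 1 to 4 DLK1 UMIs and 73597.5 UMIs and 4626 genes in all DLK1-zero cells (65048.5 UMIs in the 316 of the same 8 animals). The spike-in share was 4.40%, 4.29% and 4.52%. Depth was higher in the selected cells in 7 of 8 animals. The gap was widest in old female 4 (121038 against 68187.5 UMIs) and old female 3 (88765 against 49355 UMIs), and it turned round in young female 4 (69429 against 79205 UMIs).

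Markers of β-cells were compared by detection with the 316 DLK1-zero cells of the same 8 animals and with α-cells, and each of those given here was found in a larger share of selected β-cells than of α-cells. IAPP, the amyloid peptide released with insulin, was detected in 99.1% of selected, 100% of DLK1-zero and 68.4% of α-cells. GAD2, a glutamate decarboxylase that makes GABA, was detected in 99.1%, 99.7% and 69.1%, and the glucose transporter SLC2A2 in 96.4%, 95.9% and 25.02%. At these depths IAPP and GAD2 thus separate β-cells from α-cells poorly by detection alone. Among transcription factors of β-cells, NKX6-1 was detected in 94.5%, 86.7% and 62.4%, MAFA in 84.5%, 75.3% and 18.6%, and PDX1 in 27.3%, 20.9% and 1.02%. These shares pool cells over animals, and the selected cells were deeper (median 91754.5 against 65048.5 UMIs), whose part in detection was not tested. In the comparison within animals given below, the log2 fold change was -0.07 for NKX6-1 and 0.29 for MAFA. G6PC2, a glucose-6-phosphatase of β-cells, was rare in 2.73%, 3.80% and 0.273%.

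The 3 other genes given as markers of these cells were nearly absent. CDH22, a cadherin, had a UMI in 2 of 110 selected cells (1.82%, exact interval 0.221 to 6.41%), in 7 of the 316 DLK1-zero cells of the same animals (2.22%) and in 1.43% of α-cells. GAD1, the second glutamate decarboxylase, had a UMI in 2 of 110 (1.82%) and in 3 of 316 (0.949%), against 0.591% of α-cells. ARHGAP36, known as an antagonist of protein kinase A in Hedgehog signalling, had a UMI in 4 of 110 (3.64%, 1.00 to 9.05%) and in 1 of 316 (0.316%, 0.00801 to 1.75%), against 0.273% of α-cells. A single cell of old female 4 held 33 of the 42 ARHGAP36 UMIs of the selected cells. One cell of young female 3, with 263 DLK1 UMIs, had 19 UMIs of GAD1 and 7 of ARHGAP36. None of these 3 genes reached the level needed for testing. The cells are therefore described here by DLK1 and not by these genes. RELN, which encodes the secreted protein reelin, was found in 14 of 110 selected cells (12.7%), all from old female 3 and old female 4, and in 11 of the 316 DLK1-zero cells (3.48%). Within these animals it was found in 12 of 64 selected and 3 of 16 DLK1-zero cells of old female 4 and in 2 of 13 and 1 of 5 of old female 3. Old female 1, which had no selected cell, held 63 of the 85 DLK1-zero cells with RELN over all 16 animals.

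Hormone levels were used to define the cells and are given as a description. The INS level was lower in the selected than in the DLK1-zero cells in 7 of 8 animals. It was 43097 against 70061 CPM in old female 3, 48911 against 80773 CPM in old female 4 and 57227 against 81181 CPM in old male 1. In young animals it was 66473 against 78851 CPM in young female 1, 65345 against 74288 CPM in young female 3, 55016 against 63518 CPM in young male 1, 82471 against 93343 CPM in young male 2 and, in the other direction, 72556 against 61055 CPM in young female 4. The old animals thus had the wider gaps in INS. GCG was also lower in the selected cells in 6 of 8 animals. It was 13781 against 17300 CPM in old female 3 and, in the other direction, 22800 against 19211 CPM in young female 4. The median ratio of the leading to the second hormone was 3.52 in selected and 3.38 in DLK1-zero cells.

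To ask which other genes differ with DLK1, the UMIs of the cells of each class were summed per animal and tested within animals with edgeR's quasi-likelihood test, leaving DLK1 out. The 8 animals gave 110 selected and 316 DLK1-zero cells and 7070 tested genes. At a Benjamini-Hochberg adjusted p under 0.05, 0 genes were higher and 0 were lower (0% of tested genes called). The smallest adjusted p was 0.455, and 248 genes (3.51%) had an unadjusted p under 0.05 in the edgeR test. DESeq2 called 0 higher and 2 lower, NOSTRIN, which was at 0 in the selected cells of 5 of the 8 animals, and ENSMFAG00000039291. The test could not detect small differences. Over all tested genes the median width of the 95% interval was 1.24 on the log2 scale to either side, and 1591 genes had an interval within 1 of no change. Among the 1743 genes at 100 CPM or more, the median was 0.564 to either side and 1388 genes had such an interval. The median log2 fold change was -0.17 over all tested genes and -0.02 over those at 100 CPM or more. Since p-values here use animals as replicates, cells of an animal add precision but not replicates, and 5 of the 8 animals had 2 to 4 selected cells each, with 2 in old male 1, young female 4 and young male 1.

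**Figure D3:**
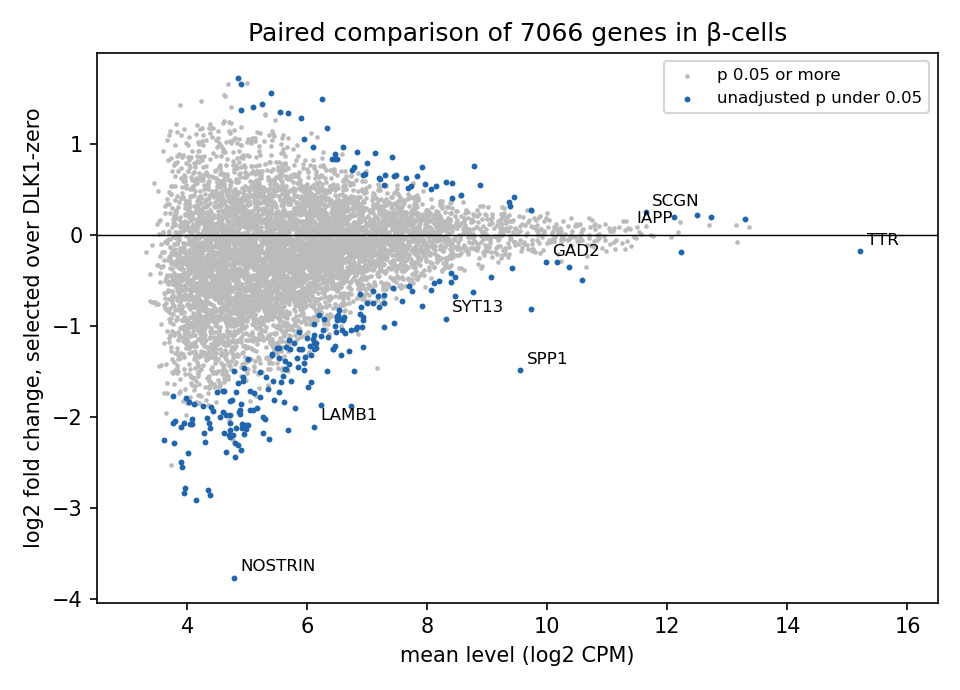
Log2 fold change of selected over DLK1-zero β-cells (y axis) against the mean level of each gene (x axis, log2 CPM), with the 4 hormones and DLK1 left out. Each point is a gene, and coloured points have an unadjusted p under 0.05. The spread narrows towards highly expressed genes, no gene has an adjusted p under 0.05, and SPP1 and NOSTRIN lie far below 0 for their level, the latter with 0 UMIs in the selected cells of 5 animals.

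When only cells with 20 or more DLK1 UMIs were taken, edgeR again called 0 genes against the DLK1-zero cells (6 animals, 64 against 186 cells, 201 genes at an unadjusted p under 0.05). Against all other β-cells of the same animals (64 against 407 cells) it also called 0, with 279 genes at an unadjusted p under 0.05. DESeq2 was not run on these subsets. These sets leave out the cells with 5 to 19 UMIs from the selected class.

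SPP1, which encodes the secreted phosphoprotein osteopontin and is also a marker of ductal cells, had, with ENSMFAG00000039291, the smallest adjusted p. Its normalised level in selected against DLK1-zero cells was 812 against 1377 CPM in old female 3, 197 against 439 CPM in old female 4 and 1692 against 5109 CPM in old male 1. In the young animals it was 180 against 316 CPM in young female 1, 3.14 against 2.27 CPM in young female 3, 22.8 against 129 CPM in young female 4, 35.2 against 1569 CPM in young male 1 and 23.4 against 27.5 CPM in young male 2. It was thus lower in 7 of 8 animals, while the levels themselves differed far more between animals than between the classes. The log2 fold change was -1.49 (95% interval -2.15 to -0.83) with an edgeR adjusted p of 0.455. With every cell thinned to 10000 UMIs it was -1.04 with an adjusted p of 0.0195, and without a filter on low counts it also passed the threshold. Over 25 alternatives the log2 fold change was between -1.71 and -0.74 and the adjusted p between 4.86e-12 and 1.

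Genes of hormone granules and their handling had narrow intervals. IAPP ranged from 1036 to 4548 CPM in selected cells and from 1003 to 4920 CPM in DLK1-zero cells and was higher in 6 of 8 animals, with a log2 fold change of 0.06 (-0.19 to 0.32). SCGN, a calcium sensor of secretory cells, was higher in selected cells in 8 of 8 animals, for example 2937 against 2577 CPM in old female 3 and 3859 against 3490 CPM in young male 2. Its log2 fold change was 0.25 (0.06 to 0.43), with an edgeR adjusted p of 0.994. ERO1B, an oxidase that helps proinsulin fold in β-cells, was lower in 8 of 8 animals, for example 1398 against 1760 CPM in old female 4 and 609 against 962 CPM in young female 1. Its log2 fold change was -0.36 (-0.61 to -0.11), with the same adjusted p of 0.994. The direction in every animal was thus not enough to pass the correction over 7070 genes. How many of all 7070 genes had the same direction in every animal was not counted, so such agreement is not read as a result.

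**Figure D4:**
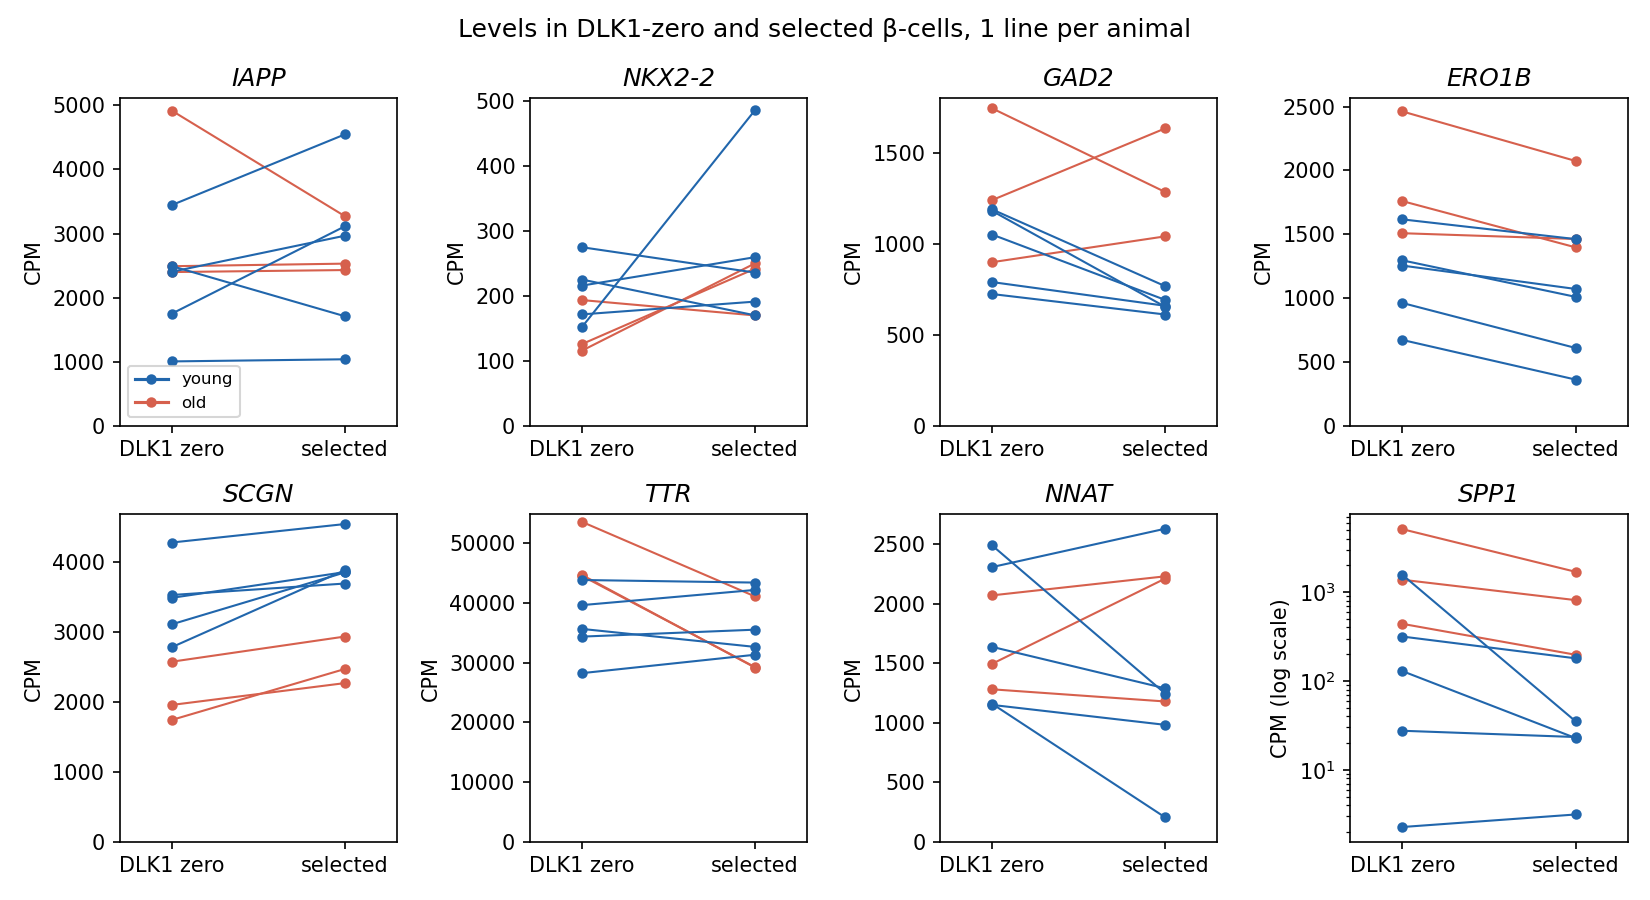
Normalised level (y axis, CPM, with a log scale for SPP1) of IAPP, NKX2-2, GAD2, ERO1B, SCGN, TTR, NNAT and SPP1 in DLK1-zero and selected β-cells. Each line joins the classes of 1 animal, blue for young and red for old. SCGN is higher in selected cells in 8 of 8 animals, ERO1B is lower in 8 of 8 and SPP1 in 7 of 8, and none passes the adjusted threshold. The share of all tested genes with such agreement was not counted.

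The genes were then read by role, in lists written from general knowledge. In every list 0 genes had an adjusted p under 0.05, against 0% of all tested genes, so that the lists are described by their counts and their median log2 fold change, beside the median of -0.17 over all tested genes. The Notch list holds receptors, ligands, processing enzymes and target genes. Of its 45 genes 15 could be tested, 3 had a positive fold change and the median was -0.26. The γ-secretase subunit PSENEN had a log2 fold change of -0.08, the ubiquitin ligase NEURL1, which acts on Notch ligands, -0.19, and the DNA-binding partner of Notch, RBPJ, -0.53 (-1.44 to 0.39). No Notch receptor and no listed HES or HEY target gene reached the level needed for testing.

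Of 51 imprinted genes other than DLK1, 14 were tested, 4 had a positive fold change and the median was -0.20. The paternally expressed NNAT, which acts in insulin handling, was 2210 against 1494 CPM in old female 3 and 205 against 1159 CPM in young female 4, and was lower in selected cells in 5 of 8 animals. Its log2 fold change was -0.35 (-0.75 to 0.04). GNAS, the stimulatory G protein subunit, was at -0.08 (-0.22 to 0.06) and SNRPN, a splicing protein, at 0.14 (-0.16 to 0.43). SLC25A29, a mitochondrial carrier near DLK1 in RefSeq's gene order, was the neighbour that could be tested, at -1.29 with an adjusted p of 0.994, while SLC25A47, WDR25 and BEGAIN were too low.

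The lists for the other marker genes followed the pathways of GAD1, ARHGAP36 and CDH22. Of 34 genes of GABA synthesis, transport and reception 8 were tested, with 3 positive and a median of -0.19. Within it GAD2 was lower in 6 of 8 animals, with 653 against 1181 CPM in young male 1 and, in the other direction, 1635 against 1240 CPM in old male 1, and a log2 fold change of -0.30 (-0.59 to -0.01, adjusted p 0.994). Of 35 genes of Hedgehog signalling and protein kinase A 8 were tested, with 2 positive and a median of -0.48. The catalytic subunit PRKACB was at -0.27, the inhibitor PKIG at 0.19 and the phosphodiesterase PDE3B at -0.38. Of 55 cadherins and adhesion genes 15 were tested, with 6 positive and a median of -0.19, and the α-catenin CTNNA1 was at 0.62 (0.04 to 1.20), EPCAM at -0.37 (-0.75 to 0.02) and the neuronal adhesion gene NRCAM at -0.19.

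Among 25 transcription factors of β-cell identity 12 were tested, with 3 positive and a median of -0.20. NKX2-2 ranged from 170 to 486 CPM in selected and from 115 to 275 CPM in DLK1-zero cells, and its log2 fold change was 0.41 (-0.12 to 0.94). ISL1 was lower in 8 of 8 animals with a fold change of -0.44 (-0.93 to 0.06), and PAX6 was at -0.21 (-0.63 to 0.21). Of 22 other β-cell markers 15 were tested, with 4 positive and a median of -0.09, and the summed level of the β-cell markers used to check the type was between 3283 and 7204 CPM in selected and between 3503 and 7540 CPM in DLK1-zero cells. Of 49 genes of insulin processing and secretion 31 were tested, with 10 positive and a median of -0.14. The prohormone convertase inhibitor PCSK1N was at 0.20 (0.01 to 0.39), the granule protein SCG3 at -0.19 (-0.36 to -0.02, lower in 7 of 8 animals) and the chaperone SCG5 at 0.03.

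Genes of immature or dedifferentiated endocrine cells numbered 30, of which 5 were tested, with 2 positive and a median of -0.03. The aldehyde dehydrogenase ALDH1A1 was at -0.03, the granule protein CHGA at -0.04 and the surface protein CD81 at -0.35. Of 30 cell cycle genes 8 were tested, with a median of -0.01, and the cyclins CCND2 and CCND3 were at -0.06 and -0.09. Of 29 genes of insulin and IGF signalling 14 were tested, with a median of -0.32, and IGFBP7, an IGF-binding protein, was at -1.07 (-1.92 to -0.23), lower in 6 of 8 animals.

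Of 36 genes of ER chaperones and the unfolded protein response 31 were tested, with 6 positive and a median of -0.20. The chaperone HSP90B1 was at -0.20 (-0.48 to 0.07) and the disulfide isomerase P4HB at 0.16 (-0.19 to 0.51). In the heat shock and immediate-early list 13 of 33 genes were tested, with 4 positive and a median of -0.11. Among 43 neuronal genes 13 were tested, with 6 positive and a median of -0.06, and the neurofilament gene NEFM was at 0.57 (-0.16 to 1.29). Of 29 genes reported to mark subsets of β-cells 14 were tested, with 4 positive and a median of -0.19, and FXYD2, a regulator of the sodium pump, was at 0.10.

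**Figure D5:**
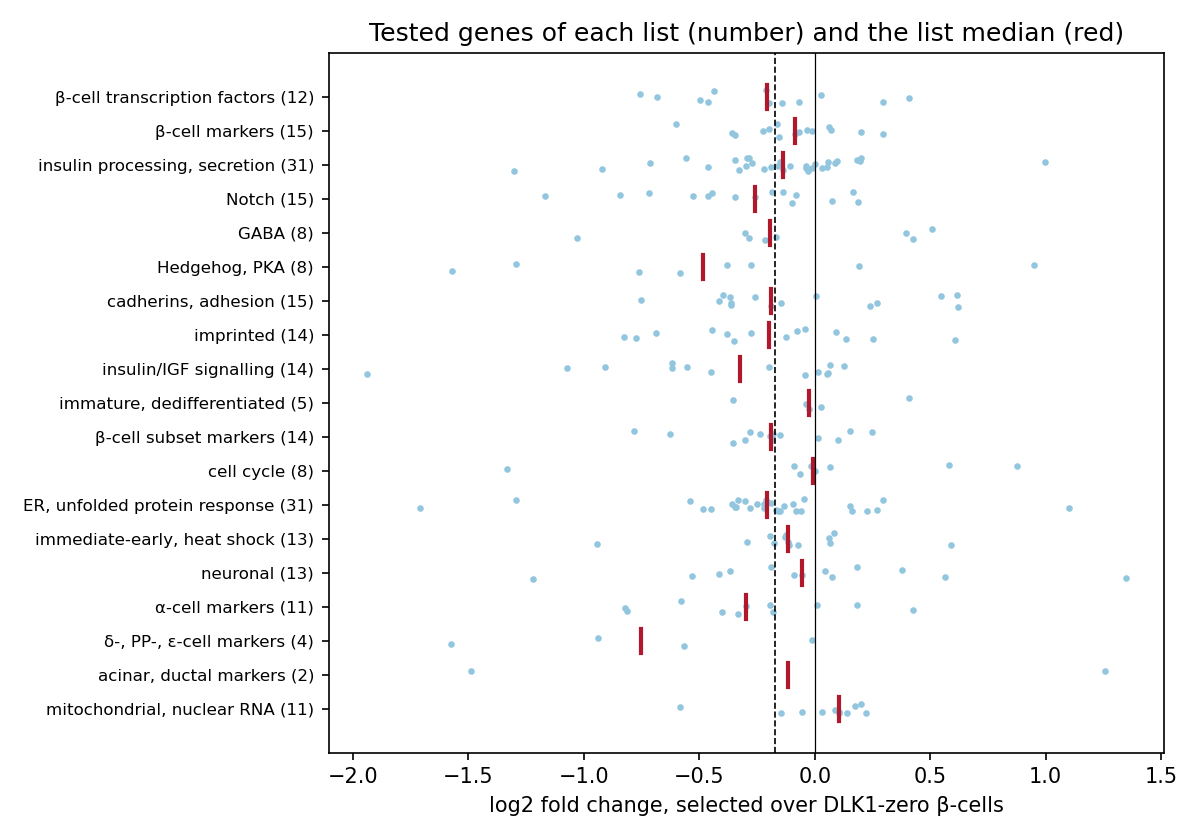
Log2 fold change of selected over DLK1-zero β-cells for each tested gene (points) of each list, with the median of the list marked. The dashed line is the median of all 7070 tested genes, -0.17. List medians lie on both sides of that line, and no gene has an adjusted p under 0.05.

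Markers of other cells and of RNA quality were compared over whole lists. The summed level of 17 α-cell markers was between 30009 and 43130 CPM in selected and between 28941 and 53455 CPM in DLK1-zero cells, was higher in selected cells in 3 of 8 animals, and was mostly TTR. The defining α-cell markers were detected at some count in both classes. Acinar and ductal markers, which include SPP1, summed to between 6.10 and 1789 CPM in selected and between 8.32 and 5014 CPM in DLK1-zero cells. They were higher in selected cells in 0 of 8 animals. The tested genes of the list were SPP1 and the keratin KRT7, and KRT7 was higher in 6 of 8 animals, at 1.26 (-0.16 to 2.68). SPP1 did not carry the sum in every animal. In selected cells KRT7 was above SPP1 in young female 4 (144 against 22.8 CPM), young male 1 (191 against 35.2 CPM) and young male 2 (36.1 against 23.4 CPM). In the selected cells 7 of 18 were at 0, among them CFTR and REG1A, and in the DLK1-zero cells 5 of 18. Markers of δ-, PP- and ε-cells without the hormones of the selection summed to between 50.4 and 380 CPM against 95.2 and 338 CPM, higher in selected cells in 4 of 8 animals. Stromal, endothelial and immune markers ranged between 28.8 and 433 CPM against 34.4 and 337 CPM, with 6 of 32 at 0 in the selected cells, among them SOX10 and CD3E. The 11 mitochondrially coded genes and nuclear RNAs in the files summed to between 32691 and 76409 CPM in selected and between 22629 and 73285 CPM in DLK1-zero cells. This sum was higher in selected cells in 7 of 8 animals. All 11 genes were tested, 8 were positive and their median was 0.10, with COX3 at 0.18 (0.01 to 0.34). The part of these lists and of depth in the gene differences was not tested.

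The study asked how islet cells change with age, so the share of selected cells among β-cells was compared between ages and sexes over the 15 animals with at least 10 β-cells, which leaves out young female 2. In old animals the share was 10.6% ± 19.2 (SD, n = 8), with selected cells in 3 of them, and in young animals 8.49% ± 9.69 (SD, n = 7), with selected cells in 5. The difference of 2.07 percentage points was far smaller than the spread between animals (two-sided exact permutation test, p = 0.818, adjusted over both comparisons 0.818). Its direction rested on single animals, since it was -3.31 without old female 3 and -1.26 without old female 4. It was also negative when at least 20 DLK1 UMIs were required (-0.954). In females the share was 17.6% ± 18.8 (SD, n = 7) and in males 2.60% ± 5.33 (SD, n = 8), a difference of -15.0 percentage points (two-sided exact permutation test, p = 0.0668, adjusted 0.134). It did not pass the threshold. Without old female 3 the difference was -9.89 (adjusted p 0.286 in the same exact test), and over the animals with at least 30 β-cells it was -5.58 (adjusted p 0.905). Other settings brought the adjusted p of this test nearer to the threshold. The difference was -9.77 at 20 or more DLK1 UMIs (adjusted p 0.0553), -15.2 after thinning (0.0758) and -17.9 without old female 1 (0.0679). None of these passed either. Low counts moved with the library, as given above, and their part in these shares was not tested.

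Age was also tested within the selected cells, with sex in the model, over 3 old and 5 young animals and 5123 genes. A single gene was called (0.0195% of tested genes), SST, which belongs to the hormones of the selection and is therefore only listed. SPP1 had a log2 fold change of 4.02 (2.40 to 5.63) of old over young, with an edgeR adjusted p of 0.109. Its normalised level in selected cells was 836, 208 and 1768 CPM in the 3 old animals and between 3.25 and 186 CPM in the 5 young ones. In the DLK1-zero cells of the paired fit SPP1 was at 1377, 439 and 5109 CPM in the same old animals. In those of the 5 young animals it was between 2.27 and 1569 CPM. Whether the SPP1 difference with age is particular to selected cells is therefore not shown. SYT13, a synaptotagmin of the secretory pathway, was at 2.65 (1.42 to 3.88) with an adjusted p of 0.358. Its level was between 407 and 550 CPM in old and between 8.08 and 310 CPM in young animals. How many of the 5123 genes had no overlap between the ages was not counted, so nothing is read from the ranges of SPP1 and SYT13. DESeq2 called 1 gene higher, SYT13, and 4 lower. SPP1 passed the threshold in edgeR when old female 3, old female 4 or young female 1 was left out.

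Whether the DLK1 classes differed by age was tested as an interaction over 9007 genes, of which 2 were called (0.0222%). Of these, INS belongs to the selection. The other was TTR, which encodes transthyretin, a carrier of thyroid hormone and retinol-binding protein and one of the most abundant transcripts of islet cells. In old animals TTR was 29386 against 42752 CPM in old female 3, 29766 against 44795 CPM in old female 4 and 39030 against 55913 CPM in old male 1. In young animals it was 40526 against 39152 CPM in young female 1, 40790 against 42543 CPM in young female 3, 28297 against 28755 CPM in young female 4, 33058 against 35042 CPM in young male 1 and 32315 against 35457 CPM in young male 2. The selected cells were thus lower in the 3 old animals and close to the DLK1-zero cells in the 5 young ones. The log2 difference between the age effects was -0.50 ± 0.0707 (SE), with an edgeR adjusted p of 9.58e-06, while the median over all 9007 genes was 0.44. TTR was called when any 1 animal was left out. With DESeq2 it was -0.62 with an adjusted p of 0.833, and with every cell thinned to 10000 UMIs it was -0.60 with an adjusted p of 0.5003, so that neither alternative made the call. Over 11 alternatives it was between -0.62 and -0.43, with adjusted p-values between 4.56e-14 and 0.833. In the 3 old animals the selected cells were also the deeper ones, with 88765 against 49355, 121038 against 68187.5 and 93635.5 against 68171.5 UMIs per cell, and the part of depth was not tested.

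The same contrast was made in α-cells, where 69 cells with 5 or more DLK1 UMIs and 1049 cells with 0 came from 6 animals. Of 9662 genes 5 were called (0.0517%), 2 higher and 3 lower, among them the hormones SST and GCG, while DESeq2 and the fit without animal as a block called 0. TTR was lower with a log2 fold change of -0.33 (-0.45 to -0.22, edgeR adjusted p 6.94e-05), and RBP4, the retinol-binding protein of plasma, was higher by 2.53 (1.64 to 3.41, adjusted p 6.94e-05). ENSMFAG00000045844 was at 0 in the α-cells with DLK1 of all 6 animals and at most 10.3 CPM in those without. It could therefore pass the filter on low counts only through the cells without DLK1, and no fold change is read from it. It was not called after thinning or when any 1 animal was left out. The RBP4 difference came mainly from old female 2, where 2 cells had a summed level of 3400 CPM against 9.90 CPM in the cells without DLK1, beside 6768 against 680 CPM of SST. Without old female 2 it was 1.12 with an adjusted p of 1.00, and without old female 3 it was 1.37 with an adjusted p of 0.998. Without old female 2 TTR was at -0.20 with an adjusted p of 0.767. Without young female 3 TTR was at -0.30 with an adjusted p of 0.271. Over the alternatives the adjusted p was between 3.43e-07 and 1.00 for RBP4 and between 1.55e-08 and 0.999 for TTR. In β-cells the TTR difference between the classes was -0.18 with an adjusted p of 0.994, and it passed the threshold only without a filter on low counts. Whether class differences differed between β- and α-cells was tested over 9374 genes in 4 animals, and the only gene called by edgeR was INS (0.0107%), which the selection used. DESeq2 called 1 gene instead, ENSMFAG00000031971, whose edgeR adjusted p was 0.998.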

How the data were processed

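Single islet cells were sequenced with a modified STRT-seq protocol. The authors trimmed and aligned the reads (CASAVA 1.8 and TopHat2 2.0.12 in their processing notes), counted uniquely mapped reads per gene and counted each UMI once. They deposited raw UMI counts per gene and cell, before their filter on cells, so the values carry no normalization. Their filter on the mapping rate was not applied here, and 5908 of 6141 cells were retained. Spike-in rows were left out of all totals. Samples were grouped by the age, sex and animal in the labels.

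In R 4.3.3, sums of UMIs per animal and class were compared by edgeR 4.0.16 (TMM, filterByExpr, quasi-likelihood test, animal as block, Benjamini-Hochberg adjustment, threshold 0.05). The planned minimum of 5 cells per class and animal left too few animals, so the planned minimum of 2 was used in the fits within animals and in the fit of age in selected cells. The design pairs both classes of the same animal, which is where the pairing comes from. DESeq2 1.42.0 was the other tool. Shares used exact permutation tests over animals in Python 3.11.15 (scipy 1.17.1). Ratios per animal in the closing section use a pseudocount of 10 CPM. The scripts were tested on simulated data. Doublets were not called, but the fit was repeated without cells above the 95th percentile of UMIs. Reads that overlap another gene, a near copy or an antisense gene cannot be told apart, since strand counting is not given in the sources used here.

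The genes named are the 3 genes given with these cells, genes past the test, of each list those past the test or, with none, up to 3 by level, the hormones and RELN. The genes SYT13, NOSTRIN, TFPI and others with small p-values were named after their values were seen, as were the neighbours of DLK1. The members, the marker genes and the lists were chosen with earlier results of these data known.

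Alternatives were other size factors, no low-count filter, no block, other cell minimums and DLK1 thresholds, thinning, stricter cell filters and leaving out each animal.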

Additional observations from a re-analysis of the deposited data

Results flagged for a closer look

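Of 73 groups of values examined for a single sample far from the others, 8 had one, while chance gives about 1 in 20. Old male 1 had selected cells at a share of 2.44% of its β-cells, while the other old males had 0. Taking a count of 0 to allow 3 counts, the other old males could have had shares of up to 4.62, 4.62 and 17.6%, all above 2.44%, so that old male 1 cannot be told apart from them. The remaining 7 were log2 ratios of selected over DLK1-zero cells in 1 of 8 animals. In young female 4, which had 2 selected cells, CHST9 was at -4.91 (the others between -0.66 and 0.68), a ratio of 0 to 291 CPM whose size the pseudocount of 10 CPM sets. In the same animal IGF2R was at 2.22 and TFPI at -3.27. In young male 1, also with 2 selected cells, EPCAM was at -1.65 and SPP1 at -5.13. NEFM was at 3.71 in young female 3, with 4 selected cells, and SCG3 was at 0.22 in young male 2, with 19.

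One difference between groups passed its own test. The effect of age on TTR differed between selected and DLK1-zero β-cells by -0.50 on the log2 scale in edgeR's interaction test. It did not pass with DESeq2 or with every cell thinned to 10000 UMIs.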

How the results depend on the processing

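In β-cells 0 genes higher and 0 lower were called without the replicate block (164 genes at an unadjusted p under 0.05) as with the animals paired, and 0 in each direction when any animal was left out (range 0 to 0). The lower count was 2 with DESeq2, 7 with no filter on low counts, of which INS and GCG belong to the selection, 1 after thinning (SPP1) and 1 with INS at least 5 times the second hormone (LYPD8). Age in selected cells gave 1 higher and 4 lower with DESeq2, 9 and 10 with no filter, and 0 lower after thinning, and 0 to 2 higher and 0 to 2 lower when an animal was left out, with SST lost without old male 1, young female 1, young female 3, young male 1 or young male 2. The age by class count was 0 with DESeq2, 1 after thinning and 2 to 3 when an animal was left out. In α-cells the counts were 0 and 0 with DESeq2 and with no block, 1 and 1 after thinning, and 1 to 2 higher and 0 to 3 lower without an animal, 0 lower without old female 2 and 1 lower without young female 3. The test between cell types called 0 to 1 without an animal, 0 without old female 3. The age difference in the share was -2.88 at 1 DLK1 UMI or more, -1.56 at 100 CPM or more, -2.49 after thinning and -0.954 at 20 UMIs or more, and ranged from -3.31 to 4.82 when an animal was left out. The sex difference ranged from -17.9 to -9.89, and over animals with at least 30 β-cells it was -5.58 (exact permutation test, adjusted p 0.905). For the 65 named genes of the paired β-cell fit, 1570 of 1597 values kept their direction and side of the threshold, or moved by less than the spread between replicates. Another 20 moved and 7 newly passed. None of these genes was called, so none could lose a call. For the named genes called in the other fits (TTR, RBP4 and ENSMFAG00000045844), 18 values lost the call. The thresholds of 20 UMIs, the libraries with a selected cell and the thinned interaction were chosen after seeing the data.

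Depth and few selected cells limit these results. Half-widths of the 95% interval had a median of 1.24 on the log2 scale, and these intervals are not adjusted for the 7070 genes tested. Larger changes also failed to pass in edgeR, such as ENSMFAG00000039291 at -1.88 (adjusted p 0.455). LAMB1 was at -2.11 (adjusted p 0.994). However, LAMB1 was at 0 CPM in the selected cells of old male 1, young female 1, young female 4 and young male 1. With so few cells in these animals, the size of its fold change is not read. The 0 genes called therefore do not exclude large changes in genes with wide intervals. The median of 1.24 is not a bound for each gene. Of the 7070 genes, 1591 had an interval within 1 of no change, among them 1388 of the 1743 at 100 CPM or more. The cells with 5 to 19 DLK1 UMIs came mainly from old female 4.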

Other observations

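A few genes with the smallest p-values in β-cells had the same direction in all 8 animals without passing the adjusted threshold in edgeR, and were picked after their values were seen. The share of all tested genes with the same direction in all 8 animals was not counted. TFPI, an inhibitor of coagulation, was between 7.59 and 232 CPM in selected cells and between 124 and 414 CPM in DLK1-zero cells, with a log2 fold change of -1.01 and an adjusted p of 0.994. In the other direction, ENSMFAG00000030038 was between 291 and 1281 CPM against 178 and 797 CPM (0.75, adjusted p 0.592). The ranges of selected and DLK1-zero cells overlapped between animals for both genes. NOSTRIN, a regulator of nitric oxide synthase known from endothelial cells, was between 0 and 18.6 CPM in selected and between 5.62 and 137 CPM in DLK1-zero cells. Since it was at 0 in 5 animals with few selected cells each, and could pass the filter on low counts only through the DLK1-zero cells, no fold change is read from it.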
